A study of Mus musculus with 78 samples.

Results

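The cathepsins are the proteases of the lysosome, the acidic compartment in which cells break down protein. The genes described here are the cathepsins other than Ctsd that the array's annotation lists under the symbols Ctsa, Ctsb, Ctsc, Ctse, Ctsh, Ctsk, Ctsl, Ctso, Ctss and Ctsz. All 10 were found, each with 1 probe set, out of 19938 genes and 35556 probe sets measured. They were followed in liver RNA of 78 female mice, 1 Affymetrix array per mouse, in 18 groups.

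The age series held Npc1-/- and Npc1+/+ littermates of the line BALB/cNctr-Npc1m1N/J, from intercrosses of heterozygous parents, at 6 ages between week 1 and week 11, with odd weeks sampled and 4 mice per genotype and age. The labels call Npc1-/- mice pre-symptomatic at 1 and 3 weeks and post-symptomatic from 5 weeks. The Npc1-/- animals lacked Npc1 throughout the body and throughout life. The second set held 12-week BALB/cJ females with an intact Npc1 gene, 5 per group, which had been injected from 8 to 12 weeks of age with an antisense oligo against Npc1 or with a control antisense oligo, each with or without the antioxidant N-acetyl-cysteine (NAC) over the same 4 weeks, or had been fasted overnight, or were left untreated. An antisense oligo lowers the RNA it pairs with, and it was given to an adult animal, so these mice lost Npc1 RNA late and in part. Every group was of the BALB/c strain.

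Npc1 carries cholesterol out of late endosomes and lysosomes, and cells without it store cholesterol and other lipids there. Most cathepsins are cysteine proteases made as inactive proforms, tagged with mannose 6-phosphate, carried to the lysosome and activated by its acid. Ctsa is a serine protease and Ctse an aspartic protease. Hepatocytes hold much of the liver's Ctsb and Ctsl, while Ctss is known from macrophages and other antigen-presenting cells and Ctsk from the bone-resorbing osteoclast.

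Values are the deposited log2 levels, so a difference of 1 means a factor of 2. A level is that of a probe set and is not set against the level of another gene. A gene was called changed when limma's moderated test, fitted on the whole table, gave a Benjamini-Hochberg adjusted p below 0.05. Differences are given with their standard error (SE) and group means with their standard deviation (SD). Beside the counts of cathepsins that passed at this threshold in a comparison of groups stands the percentage of all genes tested that did so.

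Promoter sequences are shown for the members in which a motif linked to lysosomal or macrophage genes was found, since these are the stretches in which the members differ in that respect. They come from RefSeq, mouse build GRCm38.p6, each covering 250 bases before to 50 after a start site, and 7 of the 10 genes had an entry, with 8 promoters among them. Both strands were searched for CACGTG, the E-box letters bound by MiT/TFE factors among others, for TCACGTGA, a longer palindrome that contains CACGTG and is known from promoters of lysosomal genes, and for GAGGAAGT (ACTTCCTC on the other strand), a form of the site bound by the macrophage factor PU.1. Ctsa, whose second promoter in the table holds 2 copies of TCACGTGA, lies on the + strand at chr2:164833523-164833822, and the motif is in capitals. Ctss, on the + strand at chr3:95526536-95526835, holds ACTTCCTC in capitals.
Ctsa: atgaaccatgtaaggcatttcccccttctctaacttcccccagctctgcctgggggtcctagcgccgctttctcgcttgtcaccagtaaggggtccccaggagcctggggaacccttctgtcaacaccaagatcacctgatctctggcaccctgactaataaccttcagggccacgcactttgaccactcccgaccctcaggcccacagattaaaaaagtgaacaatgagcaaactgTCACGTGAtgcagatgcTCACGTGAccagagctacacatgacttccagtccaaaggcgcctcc
Ctss: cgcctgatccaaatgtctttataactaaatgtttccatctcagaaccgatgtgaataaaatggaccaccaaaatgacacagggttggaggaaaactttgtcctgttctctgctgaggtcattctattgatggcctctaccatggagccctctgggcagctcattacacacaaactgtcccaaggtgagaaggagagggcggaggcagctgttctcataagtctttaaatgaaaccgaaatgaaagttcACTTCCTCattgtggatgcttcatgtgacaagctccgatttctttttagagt
Shorter windows are given for the other promoters with a match, Ctsl on the - strand at chr13:64370711-64370770 with CACGTG in capitals, and Ctsc on the + strand at chr7:88277894-88277981 with ACTTCCTC in capitals.
Ctsl: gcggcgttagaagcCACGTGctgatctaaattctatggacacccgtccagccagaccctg
Ctsc: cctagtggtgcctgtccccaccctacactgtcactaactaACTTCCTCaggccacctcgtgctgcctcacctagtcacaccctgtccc
In Ctsa the copies began 13 bases before and 4 bases after the first transcribed base of this promoter. The other Ctsa promoter, at chr2:164832622-164832921, held none of the motifs. Which start site is used in liver cannot be told from the array. CACGTG was found in 2 of the 7 genes, Ctsa and Ctsl, and in 7.15% of all 32851 promoters of the table. TCACGTGA was found in 1 of the 7, Ctsa, and in 0.974% of all promoters. GAGGAAGT or its complement was found in 2 of the 7, Ctsc and Ctss, and in 3.20% of all promoters. The members are counted here by gene. Counted by promoter, as the percentages are, CACGTG, TCACGTGA and GAGGAAGT were in 2, 1 and 2 of the 8. Ctsk, Ctso and Ctsz held none of these letters in this window. In the RefSeq annotation Ctsk and Ctss are neighbouring protein-coding genes on chromosome 3.

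Npc1 itself was lower in every Npc1-/- group than in the Npc1+/+ mice of the same age, without overlap at any of the 6 ages; at 11 weeks it lay between 8.41 and 9.02 in Npc1-/- livers and between 9.99 and 10.54 in Npc1+/+ livers. With the Npc1 oligo it lay between 6.96 and 7.55, against 9.98 to 10.36 with the control oligo. With NAC it lay between 6.68 and 7.51 with the Npc1 oligo, against 8.77 to 9.96 with the control oligo, and every mouse with control oligo and NAC was below every mouse with the control oligo alone. Hepatocyte genes were near the top of the array's range in every group, with mean levels per mouse of 12.20 to 12.92. Some arrays stood apart. The mean level of the pancreas genes reached 8.38 in 3-week Npc1+/+ livers, where mice 1 and 2 were high, and was at most 6.31 in the other groups. The mean of skeletal muscle genes reached 8.90 in 1-week Npc1-/- livers, in mouse 3, against at most 5.44 in 1-week Npc1+/+ livers. The 1-week Npc1+/+ mice 3 and 4 carry original names numbered apart from the rest of the series. Where a result rests on these mice, its value without them follows.

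By 11 weeks, 6 of the 10 cathepsins were higher and 3 were lower in Npc1-/- than in Npc1+/+ liver, in a comparison in which 18.8% of all genes tested were called higher and 20.5% lower. Ctss was 12.3-fold higher, and Ctsb, Ctsz, Ctsl and Ctsa were 2.06-fold to 2.44-fold higher. Ctsk is the sixth, and its Npc1+/+ level lay below the median of all array values, which served as the filter on low values, so no fold is given for it. It passed this filter through the Npc1-/- livers, so its part in the count and in the median difference is no independent support. Ctsc, Ctse and Ctso were the members lower in Npc1-/- than in Npc1+/+ liver at this age, by the differences given below with each gene. The median difference of the 10 genes was 1.13, against -0.02 for all genes tested. Ctsh, at -0.14 ± 0.08 (adjusted p = 0.19), was the member that did not pass the test.

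Averaged over the 6 ages, all 10 genes differed between genotypes, 6 higher and 4 lower in Npc1-/- liver, where 26.0% of genes were called higher and 26.6% lower. Members called numbered 4 in week 1, 6 in week 3, 7 in week 5, 8 in weeks 7 and 9 and finally 9 in week 11. The share of all genes called was larger in week 11 too. It was 2.91% higher and 2.78% lower in week 1, and 18.8% higher and 20.5% lower in week 11. The shares at the other ages are given below. The genotype difference itself varied with age for 7 of the 10, a test passed by 27.7% of all genes. Its change per week was upward for 6 members, against 14.9% of genes, and downward for Ctsc and Ctse, against 14.0%. Ctsk is counted in each of these tests, at the single ages from week 3 on, and its calls are no independent support.

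**Figure D1:**
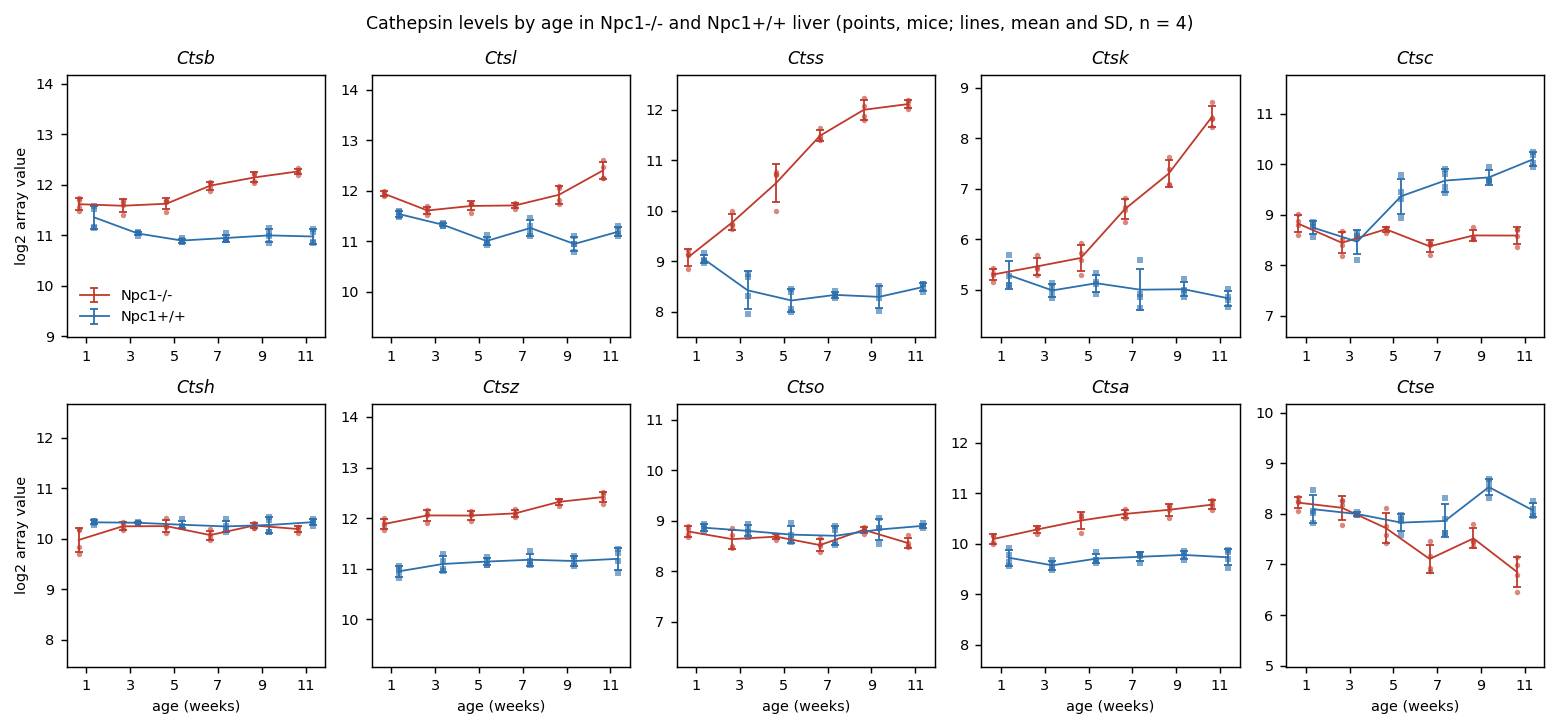
Log2 array value of the 10 cathepsins (vertical axis, a span of the same size in each panel) by age in weeks (horizontal axis) in Npc1-/- liver (red circles, drawn left) and Npc1+/+ liver (blue squares, drawn right), with each mouse as a point and the group mean and SD as lines (n = 4). Ctss and Ctsk climb with age in Npc1-/- liver, Ctsc stays between 8.19 and 9.01 in Npc1-/- mice and climbs in Npc1+/+ liver, and Ctsh and Ctso stay close together in both genotypes.

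Ctss, the endopeptidase that cuts the invariant chain of MHC class II in antigen-presenting cells, had the largest difference of the 10 on average over the ages, 2.36 ± 0.06 higher in Npc1-/- liver. At 1 week its level was 8.84, 9.15, 9.12 and 9.22 in the 4 Npc1-/- mice, against 8.97, 9.01, 9.17 and 9.03 in the 4 Npc1+/+ mice. These groups overlapped, and the difference was 0.04 ± 0.14 (adjusted p = 0.94). At 3 weeks the mice had 9.73, 9.63, 9.996 and 9.71 in Npc1-/- liver and 8.76, 8.69, 8.31 and 7.95 in Npc1+/+ liver. Every Npc1-/- mouse was above every Npc1+/+ mouse, with a difference of 1.34 ± 0.14 (adjusted p = 1.0e-09), before the age the labels call symptomatic. Without the pair of Npc1+/+ mice with pancreas genes the 3-week difference was 1.64. It had grown to 2.32 ± 0.14 by week 5, to 3.15 ± 0.14 by week 7 and to 3.70 ± 0.14 by week 9. At 11 weeks the levels were 12.07, 12.02, 12.19 and 12.16 in Npc1-/- mice, against 8.54, 8.39, 8.47 and 8.55 in Npc1+/+ mice. The groups lay 3.62 ± 0.14 apart (adjusted p = 9.5e-25), so that 37.1% of the 11-week log2 difference was present at 3 weeks and 87.0% at 7 weeks. The Npc1-/- means at 9 weeks, 12.00 ± 0.20, and at 11 weeks, 12.11 ± 0.08 (SD, n = 4), were within the spread of each other.

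Ctsk, the collagen-cutting cathepsin of osteoclasts, rose later. It passed the filter on low values, 5.54, through the Npc1-/- livers, since it exceeded that level on 16 of 24 Npc1-/- arrays and 2 of 24 Npc1+/+ arrays of the age series. A gene that enters the fit in this way had to differ, so its adjusted p-values describe these arrays and are no independent support. Its level in the 4 Npc1-/- mice was 5.41, 5.29, 5.69 and 5.46 at 3 weeks, against 5.14, 4.84, 4.95 and 5.03 in the Npc1+/+ mice. The groups did not overlap, but the difference of 0.48 ± 0.15 (adjusted p = 0.025) lost its call when any of 3 mice was left out or when both Npc1+/+ mice with pancreas genes were (adjusted p = 0.12 without both, 0.11 without Npc1-/- mouse 3, 0.087 without Npc1+/+ mouse 2 and 0.054 without Npc1+/+ mouse 3). At 5 weeks the difference was 0.50 ± 0.15 (adjusted p = 0.020) and the groups overlapped; it lost its call without Npc1-/- mouse 1 or 2 or Npc1+/+ mouse 1 (adjusted p = 0.066 to 0.098). At 7 weeks the Npc1-/- mice had 6.35, 6.82, 6.64 and 6.58, against 5.59, 4.64, 4.85 and 4.92 in Npc1+/+ mice, and at 11 weeks 8.23, 8.38, 8.72 and 8.40, against 5.02, 4.79, 4.86 and 4.66. The groups were clear of each other at both ages. The difference was 1.59 ± 0.15 in week 7, had reached 2.29 ± 0.15 by week 9 and stood at 3.60 ± 0.15 in week 11, and the Npc1-/- means at 7, 9 and 11 weeks were apart from one another by more than their spread. The mean of 14 of the 18 groups, every Npc1+/+ group among them, lay below the filter value, so low values of Ctsk may sit at the floor of the array and the size of its differences is uncertain.

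Ctsz (cathepsin X), a carboxypeptidase that takes residues singly from the end of a protein, differed early and by a nearly constant amount. At 1 week it had 11.85, 11.90, 11.77 and 12.01 in Npc1-/- mice, against 10.94, 10.98, 10.81 and 11.06 in Npc1+/+ mice. The groups stood 0.93 ± 0.08 apart (adjusted p = 6.9e-11), a 1.91-fold difference. From 3 to 9 weeks the difference ran from 0.91 to 1.17 with an SE of 0.08, and at 11 weeks it was 1.22 ± 0.08, so that 76.4% of the final log2 difference was present at 1 week. Whether it varied between ages did not pass the test (adjusted p = 0.089). Its slope of 0.03 ± 0.01 per week passed (adjusted p = 0.021) and was lost without Npc1+/+ mouse 3 of 11 weeks (adjusted p = 0.064), without the pair of 3-week mice with pancreas genes (adjusted p = 0.062) and with arrays centred on their medians (adjusted p = 0.070).

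Ctsa, the carboxypeptidase known as the protective protein of neuraminidase and beta-galactosidase, also differed from the start. Levels at 1 week were 10.03, 10.18, 9.996 and 10.16 in Npc1-/- mice, against 9.55, 9.64, 9.77 and 9.92 in Npc1+/+ mice. The lowest Npc1-/- value was above the highest Npc1+/+ value, and the difference was 0.37 ± 0.08 (adjusted p = 0.0035). It was 0.71 ± 0.08 at 3 weeks and 1.04 ± 0.08 at 11 weeks, when the Npc1-/- mice had 10.87, 10.75, 10.81 and 10.66 and the Npc1+/+ mice 9.83, 9.87, 9.52 and 9.69. Of its partners in the complex, Neu1, the lysosomal neuraminidase, was higher at every age, by 0.27 to 0.55, while Glb1, the lysosomal beta-galactosidase, passed at 7 weeks only, by 0.28.

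Ctsb and Ctsl, broad endopeptidases of most lysosomes, both came to differ between genotypes, but not in step. At 11 weeks Ctsb had 12.26, 12.20, 12.33 and 12.27 in Npc1-/- mice, against 11.07, 11.13, 10.84 and 10.87 in Npc1+/+ mice, a difference of 1.29 ± 0.09 (adjusted p = 7.2e-17). Ctsl had 12.26, 12.26, 12.47 and 12.61, against 11.14, 11.22, 11.10 and 11.31, a difference of 1.21 ± 0.08 (adjusted p = 1.4e-16). Neither gene overlapped between genotypes from 3 weeks on. Ctsl was already higher at 1 week, by 0.41 ± 0.08 (adjusted p = 0.00099), and then went through 0.28, 0.69, 0.45 and 0.97 in weeks 3, 5, 7 and 9, while Ctsb went through 0.55, 0.73, 1.04 and 1.15. In Npc1-/- liver the mean of Ctsb was 11.62, 11.59 and 11.63 in weeks 1, 3 and 5. That of Ctsl was 11.95, 11.61, 11.70 and 11.71 in weeks 1, 3, 5 and 7. In Npc1+/+ liver the means in weeks 1, 3 and 5 were 11.36, 11.04 and 10.90 for Ctsb and 11.54, 11.33 and 11.01 for Ctsl. At 1 week Ctsb overlapped between genotypes and did not pass, at 0.26 ± 0.09 (adjusted p = 0.061). Without the pair of 1-week Npc1+/+ mice named apart, Ctsb was called at 0.46 (adjusted p = 0.0025) and Ctsl was not, at 0.36 (adjusted p = 0.053). Ctsb was also called there without Npc1+/+ mouse 3 or 4 or Npc1-/- mouse 3 (adjusted p = 0.022 to 0.048). The 3-week call of Ctsl was lost without the pair of mice with pancreas genes (0.28, adjusted p = 0.087).

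Ctsc (dipeptidyl peptidase I), which activates the granule serine proteases of neutrophils, mast cells and cytotoxic lymphocytes, moved the other way. In Npc1-/- liver the means stayed between 8.37 and 8.82. In Npc1+/+ liver it climbed with age, with means of 8.74 ± 0.13, 8.46 ± 0.24, 9.36 ± 0.35, 9.67 ± 0.22, 9.74 ± 0.14 and 10.09 ± 0.14 over the 6 ages from the youngest to the oldest (SD, n = 4). At 11 weeks the single values were 8.72, 8.36, 8.58 and 8.70 in Npc1-/- mice, against 10.01, 10.18, 9.94 and 10.24 in Npc1+/+ mice. The genotypes overlapped at 1 and 3 weeks and were clear of each other from 5 weeks on, with differences of -0.65 ± 0.13 in week 5, then -1.30 ± 0.13 and -1.15 ± 0.13 in weeks 7 and 9, and -1.51 ± 0.13 in week 11 (adjusted p = 1.9e-13). Between 1 and 11 weeks the change of Ctsc in Npc1-/- liver, -0.24 ± 0.13, did not pass (adjusted p = 0.14), while in Npc1+/+ liver it rose by 1.35 ± 0.13 (adjusted p = 5.0e-12).

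Ctse, an aspartic protease of endosomes best known from stomach, red cells and antigen-presenting cells, fell later. At 11 weeks it had 6.99, 7.14, 6.80 and 6.46 in Npc1-/- mice, against 7.98, 7.96, 8.25 and 8.10 in Npc1+/+ mice, and no values overlapped. The difference was -0.75 ± 0.15 in week 7, then -1.02 ± 0.15 by week 9 and -1.23 ± 0.15 in week 11 (adjusted p = 7.6e-09). At 1, 3 and 5 weeks it lay between -0.11 and 0.13 and the groups overlapped. Stomach genes were low throughout, with mean levels per mouse of 4.74 to 5.31. Of the 7 erythroid genes tested, 2 were lower and none higher at 11 weeks, with a median of 0.00.

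Ctsh and Ctso moved least. Ctsh, an aminopeptidase, was lower at 1 week, with 9.84, 10.19, 9.70 and 10.17 in Npc1-/- mice, against 10.27, 10.36, 10.31 and 10.36 in Npc1+/+ mice. Mice 1 and 3 were the low ones. The difference of -0.35 ± 0.08 (adjusted p = 0.0049) was lost without mouse 3, the mouse with muscle genes (-0.26, adjusted p = 0.062), and without the pair of Npc1+/+ mice named apart (-0.34, adjusted p = 0.073), and in a fit of these groups alone (adjusted p = 0.097). Averaged over the ages Ctsh was lower by -0.13 ± 0.03 (adjusted p = 0.0011), a call lost under quantile normalization (-0.02, adjusted p = 0.53). Ctso, a little studied cysteine cathepsin, was lower at 11 weeks only, with 8.56, 8.48, 8.50 and 8.71 in Npc1-/- mice, against 8.90, 8.95, 8.85 and 8.90 in Npc1+/+ mice. These groups did not overlap, and the difference was -0.34 ± 0.09 (adjusted p = 0.0032).

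**Figure D2:**
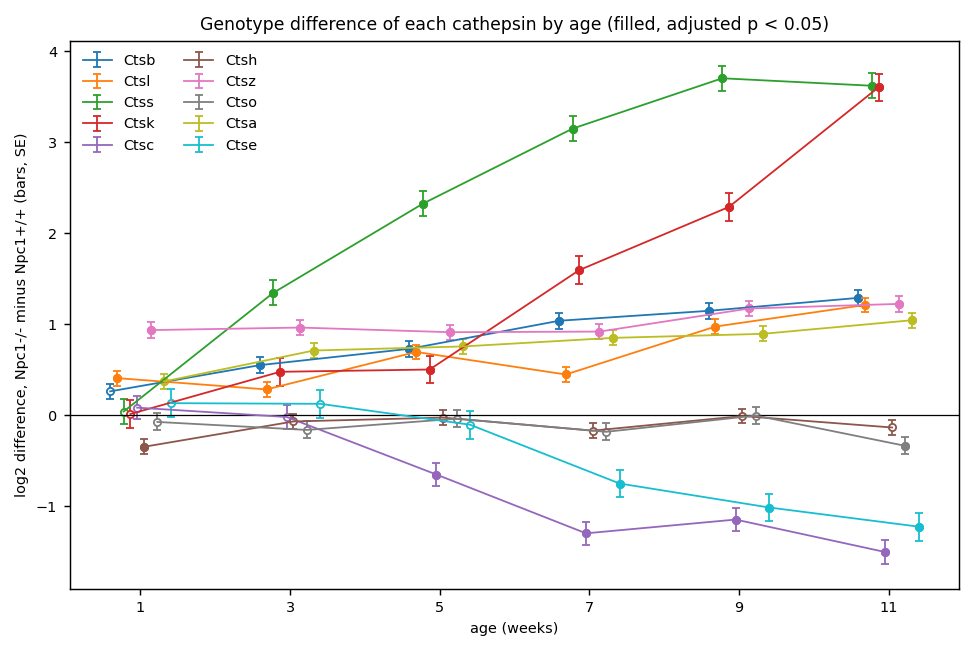
Log2 difference Npc1-/- minus Npc1+/+ (vertical axis, with SE as bars) of each cathepsin by age in weeks (horizontal axis, shifted slightly per gene), with filled points where the adjusted p was below 0.05. Ctss leaves the others at 3 weeks and reaches 3.70 at 9 weeks, Ctsk reaches 3.60 at 11 weeks, Ctsz is at 0.93 from 1 week, and Ctsc and Ctse end at -1.51 and -1.23.

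At 1 week 3 members were higher and 1 was lower in Npc1-/- liver, against 2.91% and 2.78% of genes. At 3 weeks 6 were higher and none lower, against 8.90% and 6.84%; fewer members, 4, were higher without the pair of mice with pancreas genes, a setting for which no percentage of all genes was computed. At 5 weeks 6 were higher and 1 lower, against 9.69% and 2.88%. At 7 weeks 6 were higher and 2 lower, against 14.3% and 11.0%, and at 9 weeks again 6 and 2, against 17.6% and 15.5%. Ctsk, which passed the filter through the Npc1-/- livers, is among those counted higher at 3, 5, 7 and 9 weeks.

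Between 11 weeks and 1 week in Npc1-/- liver, 7 members were higher at 11 weeks, against 20.9% of genes, and 2 were lower, against 19.6%. Ctsk was higher by 3.13 ± 0.15 and Ctss by 3.03 ± 0.14, and Ctse was lower by -1.38 ± 0.15. Ctsh at 0.22 ± 0.08 (adjusted p = 0.029) and Ctso at -0.23 ± 0.09 (adjusted p = 0.049) overlapped between these ages; leaving out Npc1-/- mouse 1 or 3 of either age ended the Ctsh call (adjusted p = 0.066 to 0.23), and leaving out 1-week mouse 1, 2 or 4 or 11-week mouse 1, 2 or 3 ended that of Ctso (adjusted p = 0.059 to 0.15). In a fit of these groups alone the calls of Ctsh (adjusted p = 0.15) and Ctso (adjusted p = 0.053) were also lost. In Npc1+/+ liver, 5 of the 10 varied with age, namely Ctsb, Ctsc, Ctse, Ctsl and Ctss, where 53.3% of all genes did. Set against 1 week, 2 were higher at 11 weeks, against 22.3% of genes, and 4 were lower, against 22.5%. Ctsc was higher as given above, and Ctsz by 0.25 ± 0.08 (adjusted p = 0.014), with overlapping groups, a call lost without 11-week mouse 1 or 2 or 1-week mouse 3 (adjusted p = 0.063 to 0.090), under quantile normalization (0.01, adjusted p = 0.93) and in a fit of these groups alone (adjusted p = 0.094). Ctss was lower by -0.55 ± 0.14, Ctsk by -0.46 ± 0.15, Ctsb by -0.38 ± 0.09 and Ctsl by -0.35 ± 0.08. Both Npc1+/+ means of Ctsk, 4.83 at 11 weeks and 5.29 at 1 week, lay below the filter value. Its Npc1-/- mean at 1 week, 5.30, did so too. Ctsk passed the filter through the older Npc1-/- livers, so its values and calls between these ages are descriptions in both genotypes. The Ctsb call was lost without the pair of 1-week mice named apart (adjusted p = 0.12), and that of Ctsk without 1-week mouse 2 (adjusted p = 0.090).

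Of the other cathepsins on the array, 3 of 10 passed the filter in the age series. Ctsd, the main aspartic protease of lysosomes, was higher at every age, by 0.42 at 1 week and 1.85 at 11 weeks. Ctsg, a serine protease of neutrophil granules, was higher at 7 and 11 weeks by 0.38 and 0.42, and Ctsf was lower at 9 weeks by -0.37. Of 6 other lysosomal peptidases tested, 5 were higher at 11 weeks and 1, Cpq, was lower, by -0.50. Lgmn, the legumain that processes several cathepsins, was higher by 2.25 ± 0.10 at 11 weeks, Prcp by 1.09, Scpep1 by 0.73 and Dpp7 by 0.68. At 1 week, where Ctsz and Ctsa already differed, Scpep1 and Dpp7 were also higher, by 0.44 and 0.49, while Lgmn at 0.08 and Prcp at -0.15 did not pass. Cpq was called lower at that age, by -0.51 (adjusted p = 0.012).

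Among 7 genes for protease inhibitors, some of which act on proteases other than these cathepsins, 3 were higher and 1 lower at 11 weeks. Cystatin C (Cst3), a secreted inhibitor of cysteine cathepsins, was higher by 0.62, cystatin B (Cstb), its counterpart in the cytosol, by 1.21, and Serpinb6a by 2.30. Serpinb1a, an inhibitor of granule proteases, was lower by -1.13. Of 13 genes that tag or carry proteases to the lysosome, 7 were higher and none lower at 11 weeks. Sort1, the sorting receptor sortilin, was higher by 2.08, Igf2r, the large mannose 6-phosphate receptor, by 0.76, Gga2 by 0.66, and Gnptab, which makes the mannose 6-phosphate tag, by 0.59. The medians of these lists at 11 weeks were 0.70 for the peptidases, 0.19 for the inhibitors and 0.30 for sorting, against -0.02 for all genes.

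Genes of other cell types moved in the same mice. At 11 weeks 15 of 16 macrophage genes tested were higher and 1 was lower in Npc1-/- liver, with a median of 1.70, and the mean level of the list per mouse was 8.27 to 8.43 in Npc1-/- livers, against 6.60 to 6.72 in Npc1+/+ livers. All 9 genes of lipid-laden macrophages tested were higher, with a median of 4.203 and list levels of 9.96 to 10.27 against 6.07 to 6.28. Of 8 genes of resident Kupffer cells, the macrophages that line the liver's sinusoids, 7 were lower, with list levels of 5.90 to 6.37 against 7.38 to 7.44. Of 5 genes of class II and dendritic cells tested, 4 were higher, namely Cd74, the invariant chain, by 0.76 and the class II genes H2-Aa, H2-Ab1 and H2-Eb1 by 1.31, 1.01 and 0.66, with list levels of 6.24 to 6.78 in Npc1-/- livers, against 6.09 to 6.202 in Npc1+/+ livers. These 4 were also higher at 5, 7 and 9 weeks. Of 4 osteoclast genes tested 3 were higher, and all 7 neutrophil genes were higher, with a median of 0.68. Hepatocyte genes had 4 of 11 lower and none higher, with a median of -0.11. Of 8 genes of sinusoidal endothelium 6 were lower and 1 was higher, and of 9 stellate cell and fibroblast genes 4 were higher and none lower. The part of these cell types in the cathepsin differences was not tested, and in whole liver a change in the number of cells of a type and a change in RNA per cell cannot be told apart. At 1 week, where Ctsz, Ctsl and Ctsa were higher, macrophage list levels were 7.18 to 7.47 in Npc1-/- livers and 7.26 to 7.41 in Npc1+/+ livers, with 2 of 16 genes higher and 2 lower. Lipid-laden macrophage genes had list levels of 7.31 to 7.64 in Npc1-/- livers at that age, against 7.11 to 7.20 in Npc1+/+ livers, with 3 of 9 genes higher, and Kupffer cell genes 6.76 to 7.04 in Npc1-/- livers, against 7.30 to 7.45, with 3 of 8 lower. Neither of these lists overlapped between genotypes at 1 week. Of the class II and dendritic genes Cd74 alone was called then, higher by 0.57.

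Over the 18 group means, the pattern of Ctss was most like those of Cd68 (Pearson r = 0.993), Lyz2 (0.992) and Cd84 (0.984), among 12112 genes. Cd68 and Lyz2 are macrophage genes, and at 11 weeks they were higher in Npc1-/- liver by 3.99 ± 0.12 and 3.62 ± 0.16. For Ctsk the closest were Clec4d (0.988), Pirb (0.977) and Pstpip1 (0.977). Ctsa was closest to Clec7a (0.990), Ctsd (0.987) and Grn (0.979), and Ctsz to Rragd (0.974), Ctsa (0.968) and Mroh1 (0.958). Ctsb was closest to Atp6v1b2 (0.983), a subunit of the pump that acidifies lysosomes, to Psap (0.979), the precursor of the saposins, and to Man2b1 (0.978), lysosomal alpha-mannosidase. For Ctsl they were Atp6ap2 (0.955), Fuca2 (0.954) and Dkk3 (0.952). The members that did not rise had other partners, Smyd1 (0.912), Babam1 (0.900) and Washc3 (0.900) for Ctsc, Ndufab1 (0.928), Agmat (0.914) and Dhrs4 (0.911) for Ctse, Oxsm (0.940), Rcbtb1 (0.931) and Jkamp (0.931) for Ctsh, and Cr1l (0.964), Trappc2 (0.942) and Prorsd1 (0.936) for Ctso. Within the family, Ctsa, Ctsb, Ctss and Ctsz had group means that went together, with r of 0.891 to 0.968, Ctsh and Ctso had r = 0.894, and Ctse ran against Ctsk with r = -0.857. These are descriptions over groups that share genotype, age and set. For Ctsk, 14 of the 18 means lay below the filter value, all but those of Npc1-/- livers from 5 weeks on, and its correlations carry that limit.

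In 12-week mice the Npc1 oligo was followed by higher levels of 5 of the 9 cathepsins tested, against 14.7% of genes called higher, and none was lower, against 7.88%. Ctss was 2.80-fold higher, and Ctsz, Ctsa, Ctsl and Ctsb 1.39-fold to 1.76-fold. Ctss had 11.17, 10.58, 10.27, 10.92 and 11.21 with the Npc1 oligo, against 9.46, 9.17, 9.40, 9.57 and 9.13 with the control oligo, a difference of 1.48 ± 0.21 (adjusted p = 3.9e-06). Ctsz had 12.15, 11.85, 12.05, 12.11 and 12.03, against 11.18, 11.12, 11.21, 11.32 and 11.28, a difference of 0.82 ± 0.07 (adjusted p = 1.9e-09). For these and for Ctsa at 0.66 ± 0.07, Ctsl at 0.48 ± 0.08 and Ctsb at 0.48 ± 0.09, every mouse with the Npc1 oligo was above every mouse with the control oligo. Ctsc at -0.19 ± 0.12 (adjusted p = 0.28), Ctse at -0.27 ± 0.12 (adjusted p = 0.10), Ctsh at 0.09 ± 0.06 and Ctso at 0.03 ± 0.07 overlapped and did not pass. The median over the 9 was 0.48, against 0.02 for all genes. Ctsk did not pass the filter on low values in these mice and was not tested; its levels were 5.42, 5.08, 5.38, 5.44 and 5.55 with the Npc1 oligo, against 5.02, 4.72, 5.20, 5.04 and 5.01 with the control oligo, and the groups overlapped.

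**Figure D3:**
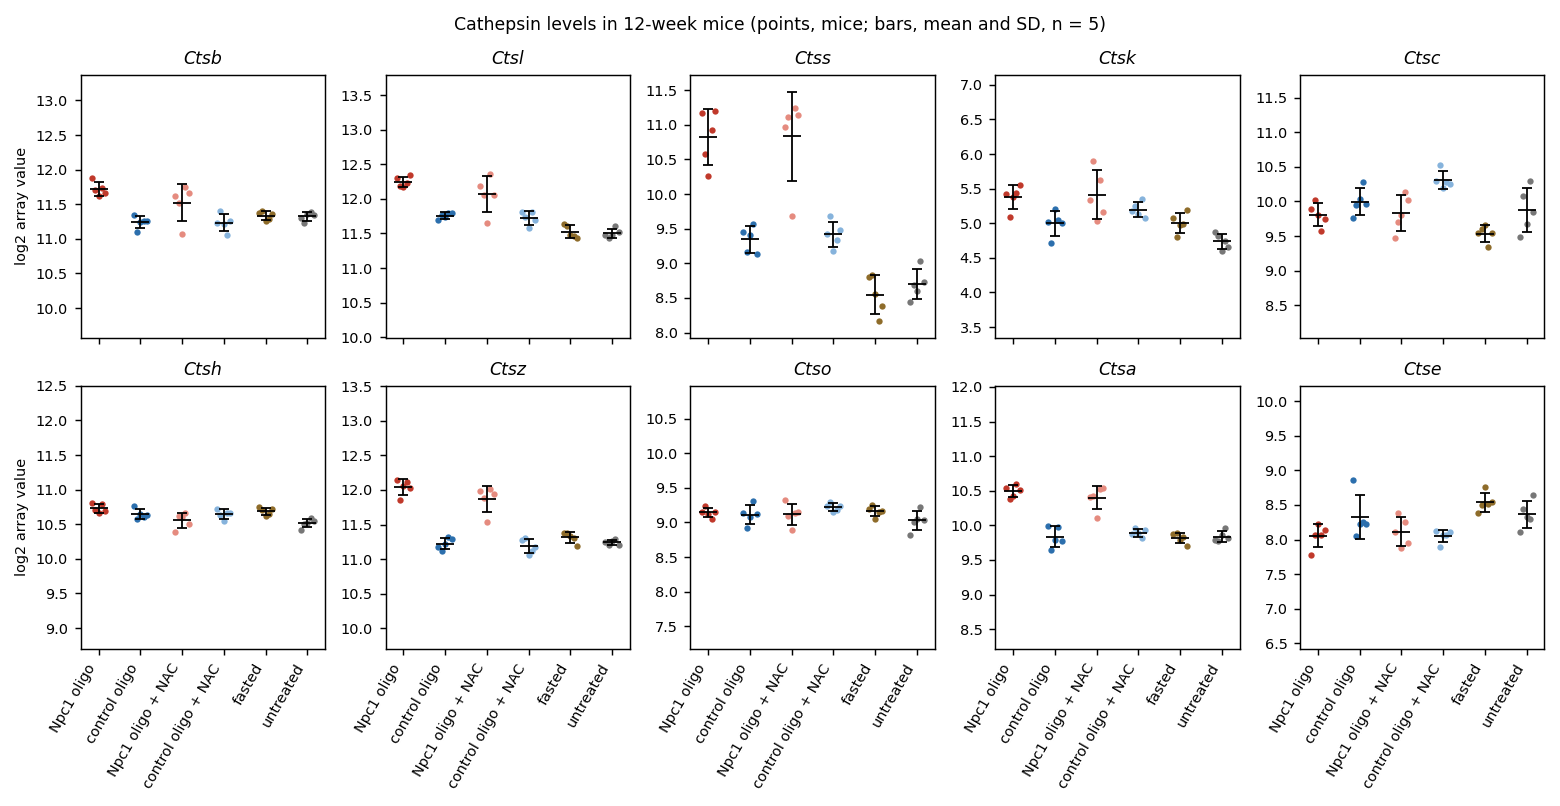
Log2 array value (vertical axis, a span of the same size in each panel) of the 10 cathepsins in the 6 groups of 12-week mice (horizontal axis), with each mouse as a point and the group mean and SD as bars (n = 5). Ctsa and Ctsz are higher with the Npc1 oligo than with the control oligo in every mouse, with or without NAC, and mouse 3 of the group with Npc1 oligo and NAC has the lowest Ctss of its group, 9.69.

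Given together with NAC, the Npc1 oligo was followed by higher levels of the same 5 genes, against 11.0% of genes, and by lower Ctsc, against 14.7%. Ctss had 10.97, 11.12, 9.69, 11.25 and 11.15 with the Npc1 oligo and NAC, against 9.43, 9.68, 9.19, 9.33 and 9.48 with the control oligo and NAC. Mouse 3 of the Npc1 oligo group lay just above the highest control value and also had the lowest Ctsa, Ctsb, Ctsl and Ctsz of its group, and the lowest level of macrophage genes, 7.28, and of lipid-laden macrophage genes, 7.10, against highest values of 8.25 and 9.20. The difference of Ctss was 1.41 ± 0.21 (adjusted p = 5.0e-06) and 1.70 without that mouse. Ctsb was higher by 0.29 ± 0.09 (adjusted p = 0.012) and Ctsl by 0.34 ± 0.08 (adjusted p = 0.0022), with overlapping groups; without mouse 3 they were 0.40 and 0.44. Both missed the threshold when the fit held only the 2 groups compared (adjusted p = 0.11 and 0.053). Ctsc had 9.47, 9.71, 9.81, 10.13 and 10.02, against 10.29, 10.53, 10.19, 10.28 and 10.25, so each mouse with the Npc1 oligo was below each control, with a difference of -0.48 ± 0.12 (adjusted p = 0.0040).

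NAC itself changed none of the 9 members by this test, in mice with the Npc1 oligo, where 7.15% of genes were called, or with the control oligo, where 8.50% were. None showed an interaction of NAC with the Npc1 oligo either, against 4.83% of genes. The differences with NAC in mice with the Npc1 oligo lay between -0.20 for Ctsb and 0.06 for Ctse, and Ctsh at -0.18 ± 0.06 was nearest to the threshold (adjusted p = 0.051). Leaving out Npc1 oligo mouse 3, or mouse 2, 3 or 4 of the group with NAC, called Ctsh (adjusted p = 0.029 to 0.049), and without mouse 4 Ctsl as well (-0.25, adjusted p = 0.041). For Ctss the difference with NAC was 0.00 ± 0.21 in mice with the Npc1 oligo. After an overnight fast none of the members passed, against 0.529% of genes; Ctsh was higher in all 5 fasted mice than in any untreated mouse, by 0.17 ± 0.06 (adjusted p = 0.22).

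The control oligo alone was followed by higher Ctsl and Ctss than in untreated mice, 2 of 9 members against 5.05% of genes, and none was lower, against 21.3%. Ctss had 9.46, 9.17, 9.40, 9.57 and 9.13 with the control oligo, against 8.44, 8.69, 8.60, 9.04 and 8.73 in untreated mice, and Ctsl had 11.69, 11.76, 11.73, 11.80 and 11.80, against 11.48, 11.44, 11.48, 11.61 and 11.53. Neither gene overlapped, with differences of 0.65 ± 0.21 (adjusted p = 0.019) and 0.25 ± 0.08 (adjusted p = 0.021). The Ctss call was lost without untreated mouse 1 (adjusted p = 0.051) and that of Ctsl without untreated mouse 2 (adjusted p = 0.051). Of 15 macrophage genes tested 7 were higher in these mice and none lower, and of 8 Kupffer cell genes 5 were higher, while the median of all genes was -0.07. The Npc1 oligo was compared with the control oligo and not with untreated mice; in that comparison 9 of 15 macrophage genes and 8 of 9 genes of lipid-laden macrophages were higher, with medians of 0.50 and 1.67, 2 of 8 Kupffer cell genes were higher with a median of 0.04, and none of 6 class II and dendritic cell genes was called, against 4 higher with NAC.

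Related genes followed the Npc1 oligo as well. All 6 other lysosomal peptidases were higher without NAC, Lgmn by 0.93, Dpp7 by 0.60, Scpep1 by 0.53, Cpq by 0.42 and Prcp by 0.36. Ctsd was higher by 0.89. Of 13 sorting genes 6 were higher, among them Gga2 by 0.39, Igf2r by 0.36 and Sort1 by 0.34. Of 5 inhibitor genes tested 2 were higher, Serpinb6a by 0.66 and Cst3 by 0.27, and Neu1 was higher by 0.42.

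**Figure D4:**
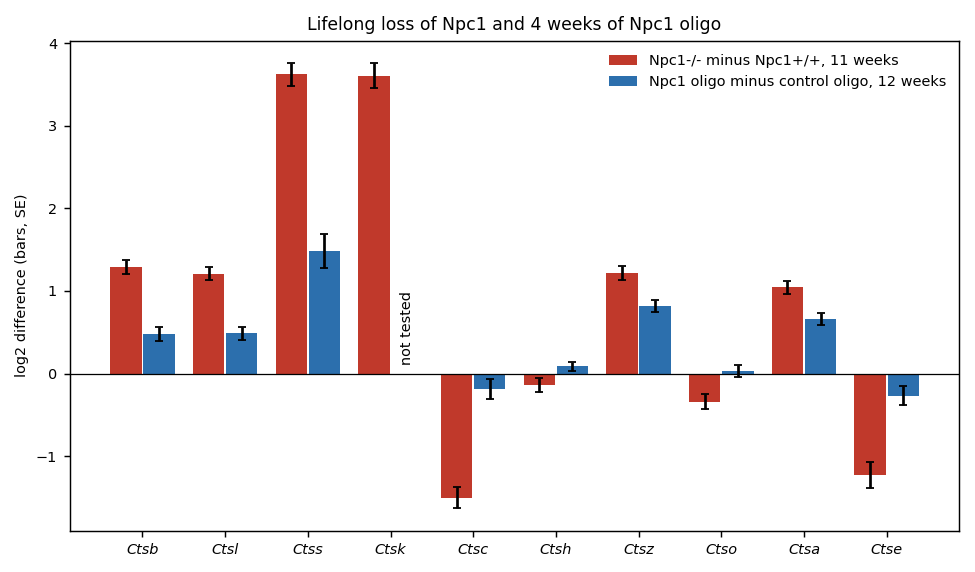
Log2 difference (vertical axis, with SE as bars) of each cathepsin between Npc1-/- and Npc1+/+ liver at 11 weeks (red, left) and between Npc1 oligo and control oligo without NAC at 12 weeks (blue, right). Among the members called in both comparisons, Ctsz and Ctsa are nearest in size, at 1.22 and 0.82 and at 1.04 and 0.66, while Ctsc stands at -1.51 and -0.19 and Ctsk was not tested with the oligo.

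The 11-week genotype difference was set against the oligo difference without NAC in a fit of all 78 arrays, in which Ctsk was tested. It was more positive for 6 members, against 11.7% of genes, and more negative for 3, against 16.0%. The excess was 2.14 ± 0.25 for Ctss (adjusted p = 3.0e-10), 0.81 ± 0.12 for Ctsb and 0.72 ± 0.11 for Ctsl. For Ctsk it was 3.23 ± 0.20, but the Npc1+/+, Npc1 oligo and control oligo means, 4.83, 5.37 and 5.00, all lay below the filter value, and Ctsk entered this fit through the older Npc1-/- livers, so this value is a description. The excess was smallest among those called higher for Ctsz, at 0.41 ± 0.11 (adjusted p = 0.0032), and Ctsa, at 0.38 ± 0.11 (adjusted p = 0.0048). On the negative side it was -1.32 ± 0.18 for Ctsc, -0.96 ± 0.20 for Ctse and -0.37 ± 0.12 for Ctso. Ctsh did not pass (-0.22 ± 0.10, adjusted p = 0.075). The comparison sets littermates of a mutant line against injected mice of another supply, age and storage, and these cannot be told apart from the way Npc1 was lost. The control oligo mice were themselves above untreated mice for Ctss, as given above.

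Ordered by group mean, the 11-week Npc1-/- livers held the highest level of Ctsa, Ctsb, Ctsk, Ctsl, Ctss and Ctsz among the 18 groups and the lowest of Ctse. The lowest means were 9.57 for Ctsa, 10.90 for Ctsb, 10.95 for Ctsl, 8.22 for Ctss and 10.95 for Ctsz, all in Npc1+/+ livers of the age series, and 4.74 for Ctsk in untreated mice. Ctsc and Ctso were lowest in 7-week Npc1-/- livers, at 8.37 and 8.52, and highest in mice with control oligo and NAC, at 10.31 and 9.22. Ctsh was lowest in 1-week Npc1-/- livers, at 9.98, and highest with the Npc1 oligo, at 10.73. For Ctsh and Ctso every group outside the age series, untreated mice among them, had a higher mean than every group within it. The sets differ in supply, age and storage, and the part of the oligo in these orders was not tested. Most neighbours in these orders did not differ beyond their spread. Of 17 neighbouring pairs per gene, the values of 3 were apart for Ctsk, 2 each for Ctsa, Ctsb, Ctss and Ctsz, 1 each for Ctsh and Ctsl, and none for Ctsc, Ctse and Ctso. For Ctsk these were the steps below 11, 9 and 7 weeks in Npc1-/- liver, and for Ctss those below 9 and 7 weeks. For Ctsh and Ctsl the step lay between untreated mice and an Npc1+/+ group of the age series, and so between the sets. The Ctss step below 7 weeks led to the group with Npc1 oligo and NAC. That step, both steps of Ctsb and the Ctsa step below 1-week Npc1-/- livers also lay between the sets.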

How the data were processed

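Per the labels' protocols, liver RNA was extracted with TRIzol and RNeasy columns and hybridised to Affymetrix arrays. The authors deposited log2 values of 35556 probe sets; RMA and Partek 6.5 stand in the submitters' processing notes, without role or order, and how arrays were scaled to one another is not stated. Array medians ran from 5.35 to 5.65, and precision rests on the number of mice. Livers of 12-week mice were frozen or kept in RNAlater, without saying which. The probe table gave 1 symbol to 21789 probe sets, several to 1621 and none to 12146; each gene took its probe set of highest mean. A gene had to exceed the table's median, 5.54, on 4 or more arrays of a fit and was then tested with limma 3.58.1 (R 4.3.3) in 3 fits, over 12638 genes for the age series, 11900 for 12-week mice and 12748 for all arrays, with Benjamini-Hochberg adjustment over all genes and no replicate block. The test was checked on simulated data. All 10 members are named, with the 3 genes nearest in pattern and, of each list, up to 4 genes of largest mean genotype difference. Cpq is named as well, as the peptidase that was lower. Members and lists were chosen with earlier results of these data known. P-values for 12-week groups assume separate animals, as labelled.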

Additional observations from a re-analysis of the deposited data

Results flagged for a closer look

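Among 180 sets of a gene and a group, 9 held a mouse far from the others of its group, and chance alone gives about 1 in 20. In 5-week Npc1-/- liver Ctss was 9.99 in mouse 3, below 10.70 to 10.76 in the others, Ctsc was 8.64 in the same mouse, below 8.73 to 8.74, and Ctsl was 11.57 in mouse 1, below 11.74 to 11.76. Without mouse 3 the 5-week difference of Ctss was 2.51. In the group with Npc1 oligo and NAC, mouse 3 was low for Ctss, 9.69 against 10.97 to 11.25, and for Ctsz, 11.54 against 11.88 to 12.01. Ctsz was low in 9-week Npc1-/- mouse 2, at 12.23 against 12.34 to 12.36. Ctsc was high in 9-week Npc1+/+ mouse 2, at 9.95 against 9.66 to 9.68. Ctse was high in control oligo mouse 1, at 8.86 against 8.05 to 8.26, and low in mouse 2 of the group with control oligo and NAC, at 7.89 against 8.07 to 8.12.

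The genotype difference varied between ages for 7 members by limma's F-test, with adjusted p of 6.3e-20 for Ctss, 5.4e-18 for Ctsk, 1.3e-10 for Ctsc, 6.7e-09 for Ctsb, 1.7e-08 for Ctsl, 3.9e-07 for Ctse and 0.00042 for Ctsa; Ctsk passed the filter through the Npc1-/- livers, so its value is a description. Of all genes tested, 27.7% passed this F-test. The 11-week genotype difference differed from the oligo difference for 9 members, where 11.7% of genes were more positive and 16.0% more negative. On the log2 scale this was by 3.23 for Ctsk, 2.14 for Ctss, 0.81 for Ctsb, 0.72 for Ctsl, 0.41 for Ctsz, 0.38 for Ctsa, -0.37 for Ctso, -0.96 for Ctse and -1.32 for Ctsc. The Npc1+/+, Npc1 oligo and control oligo means of Ctsk, 4.83, 5.37 and 5.00, lay below the filter value. Ctsk entered that fit through the older Npc1-/- livers, so its 3.23 is a description.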

How the results depend on the processing

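Of the members' results under other settings, 2359 kept their direction and side of the threshold, 90 lost and 26 gained a call, and 1 reversed; with single arrays left out, 3183 kept theirs, 24 lost and 13 gained a call. The reversal was Ctsh at 11 weeks against 1 week in Npc1+/+ liver under quantile normalization, at -0.20 (adjusted p = 0.0087). The cause was not tested. For the counts of members under other settings given here, no percentage of all genes was computed, so they cannot be set against one. A required 2-fold change, which is stricter by construction, left 0 members in week 1, 1 each in weeks 3 and 5, 4 in week 7, 3 for the mean over ages, 3 for 11 weeks against 1 week in Npc1-/- and 1 in Npc1+/+ liver, 1 for the Npc1 oligo without NAC and 1 with NAC, 0 for the control oligo against untreated mice and 3 for the 11-week genotype difference against the oligo difference. At an adjusted p threshold of 0.01 the control oligo against untreated mice gave 0. For NAC with the Npc1 oligo, 1 member was called under a stricter filter, an intensity trend with robust prior, an unmoderated test, array weights and averaged probe sets per gene, and 0 to 2 with single arrays left out; NAC with the control oligo gave 1 under quantile normalization, and fasting gave 1 under array weights. Leaving out single arrays gave 1 to 2 for the control oligo against untreated mice. Same-numbered mice deviated together (correlation over 0.1) in 10 of 54 pairs. Differently numbered mice were not compared, so this count cannot tell whether the numbers pair mice. With a replicate block the 11-week comparison again called 9 members and the Npc1 oligo 5. The block ended the call of Ctso between 11 weeks and 1 week in Npc1-/- liver (-0.23, adjusted p = 0.051). Without a filter on low values Ctsk was tested with the Npc1 oligo and was higher by 0.38 (adjusted p = 0.026). With NAC it did not pass, at 0.22 (adjusted p = 0.25). The means without NAC, 5.37 with the Npc1 oligo and 5.00 with the control oligo, lay below the filter value. Those groups overlapped, so the size of this difference is uncertain.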

Other observations

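Stfa3 (stefin A3), an inhibitor of cysteine cathepsins that was singled out after its values were seen, was lower at 11 weeks than at 1 week by -3.58 in Npc1-/- and by -4.57 in Npc1+/+ liver, and Ctsg by -0.65 in Npc1-/- and -1.05 in Npc1+/+ liver. Other inhibitors differed from this, among them Cst3 and Cstb, which were higher at 11 weeks in Npc1-/- liver, by 0.72 and 0.98. All 7 neutrophil genes tested were lower at 11 weeks in both genotypes, with medians of -2.61 in Npc1-/- and -3.49 in Npc1+/+ liver. Of all genes, 19.6% were called lower in Npc1-/- and 22.5% in Npc1+/+ liver.

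Sort1, the receptor that carries several lysosomal proteins, changed by 0.00 between 1 and 11 weeks in Npc1-/- liver, while it fell by 1.86 in Npc1+/+ liver. With the control oligo, 7 of 13 sorting genes were lower than in untreated mice and Sort1 was higher, by 0.37. In that comparison 21.3% of all genes were called lower and 5.05% higher.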
